A study of Homo sapiens with 6 samples.

Results

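IL24 (ENSG00000162892) was examined together with its cluster neighbours IL10 (ENSG00000136634), IL19 (ENSG00000142224) and IL20 (ENSG00000162891), and with IL20RA (ENSG00000016402), IL20RB (ENSG00000174564) and IL22RA1 (ENSG00000142677), the receptor chains through which IL24 signals. These 7 genes were taken by name from a table of 60671 genes, and all 7 were found. The RNA-Seq experiment used U87, an established human glioblastoma cell line, in 2 groups of 3 libraries each. The rutaecarpine group received 100 μM rutaecarpine, an alkaloid, for 48 h in serum-free medium, and the control group received only the solvent, 0.1% DMSO, for 48 h. Both groups thus carried the same solvent, and both came from 1 cell line. No label says that the 3 libraries of a group came from separate cultures, so the p-values measure the spread between these libraries.

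IL24 is a secreted cytokine of the IL10 family, and its gene lies in a cluster on chromosome 1 with those of IL10, IL19 and IL20. IL24 and IL20 bind a receptor made of IL20RA and IL20RB or one made of IL22RA1 and IL20RB, IL19 binds only the IL20RA and IL20RB pair, and IL10 binds its own receptor of IL10RA and IL10RB. The IL24 receptors signal through JAK kinases to STAT3, whose target SOCS3 feeds back on the pathway, and IL24 inside the cell has also been linked to endoplasmic reticulum stress. IL24 is made by immune cells and keratinocytes and has been studied as an inhibitor of tumour growth and migration in glioblastoma and other cancers.

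In the GENCODE release 29 gene models on GRCh38, IL24 lies at chr1:206897443-206904139 on the plus strand and has 7 annotated transcripts. IL20 lies at chr1:206865354-206869223 and IL19 at chr1:206798870-206842981, both also on the plus strand, and IL10 lies at chr1:206767602-206772494 on the minus strand. The starts of IL20, IL19 and IL10 lie 32.1, 98.6 and 125 kb from the IL24 start, all on the same side. IL20RB lies at chr3:136946230-137011085 on the plus strand, IL20RA at chr6:136999971-137045180 on the minus strand, and IL22RA1 at chr1:24119771-24143121 on the minus strand.

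The 250 bases before the start of IL24 are shown because IL24 was the member that rose, and those of IL20 and IL10 because these are neighbours in the cluster that stayed near 0 TPM. The sequences are from RefSeq on GRCh38.p14 and read 5′ to 3′ on the gene's own strand, at chr1:206897193-206897442 (plus) for IL24, chr1:206863315-206863564 (plus) for IL20 and chr1:206772495-206772744 (minus) for IL10. Capitals mark matches to TATATA or TATAAA, and in the GENCODE models all 3 stretches lie outside the genes.
IL24: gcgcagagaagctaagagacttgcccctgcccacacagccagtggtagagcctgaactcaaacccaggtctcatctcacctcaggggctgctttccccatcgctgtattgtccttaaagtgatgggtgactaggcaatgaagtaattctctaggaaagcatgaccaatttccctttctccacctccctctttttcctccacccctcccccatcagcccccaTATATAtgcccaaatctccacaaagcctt
IL20: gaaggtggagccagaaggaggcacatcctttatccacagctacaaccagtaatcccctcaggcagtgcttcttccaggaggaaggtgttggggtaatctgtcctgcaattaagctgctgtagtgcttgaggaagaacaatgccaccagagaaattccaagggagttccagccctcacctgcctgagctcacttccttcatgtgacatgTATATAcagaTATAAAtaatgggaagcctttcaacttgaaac
IL10: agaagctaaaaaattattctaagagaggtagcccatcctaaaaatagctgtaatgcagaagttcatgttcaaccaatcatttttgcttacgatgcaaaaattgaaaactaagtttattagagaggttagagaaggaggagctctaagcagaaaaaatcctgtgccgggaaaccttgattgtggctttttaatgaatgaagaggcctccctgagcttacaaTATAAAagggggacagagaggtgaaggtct

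TATATA began 29 bases before the IL24 start and 42 bases before this IL20 start, and TATAAA began 32 bases before the IL20 start and 30 bases before the IL10 start. RefSeq gives several starts for some members, so the 7 genes had 12 windows of 300 bases (250 before and 50 after a start), and the IL20 and IL10 windows shown were picked among them after the matches were seen. Of the 35116 such windows of all genes, 3.99% held TATATA and 11.5% held TATAAA on either strand, and these letters can overlap each other. The dioxin response element, the site bound by the aryl hydrocarbon receptor (AhR), was searched as CACGCNA on both strands. It matched in 5.51% of all windows and in 0 of the 12 windows of the members. Its shorter core CACGC, which the longer motif contains, matched in 36.5% of all windows and in 1 member, IL20RA, 27 bases after a start. TGANTCA, the AP-1 motif, matched in 7.71% of all windows and in those of IL22RA1, IL10 and IL19, where the IL10 and IL19 matches were the same bases read on opposite strands. TTCNNNGAA, a STAT motif, matched in 7.66% of all windows and in 1 window of IL19. No motif of these 6 matched in the IL20RB window. The windows are short, so a window without a match does not show that a gene lacks the motif farther from its start. A match is a stretch of letters, not a measured binding site.

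Of the 7 genes, only IL24 was well above the limit of measurement and changed by a large amount. The values are in TPM (a length-corrected relative abundance), which divide a gene's estimated reads by its length and scale each library to a fixed total, so that levels can be compared between genes. They keep no read numbers. The TPM of IL24 was 2.38, 2.72 and 2.08 in control replicates 1, 2 and 3. After rutaecarpine it was 74.61, 71.74 and 81.12. The lowest rutaecarpine library was 26.4 times the highest control library, so the groups were far apart. The means were 2.39 ± 0.320 and 75.8 ± 4.81 TPM (SD, n = 3), a ratio of 31.7, and the spread between replicates was 13.4% of the mean in the control group and 6.34% after rutaecarpine.

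The groups were compared over all genes with limma on log2(TPM + 1), with p-values adjusted by the Benjamini-Hochberg method over the 14377 genes that reached 1 TPM in 3 or more libraries. A gene passed at an adjusted p of at most 0.05, and one whose log2 fold change was also above 1 or below -1 was called a differentially expressed gene (DEG). The log2 fold change of IL24 was 4.50 (95% confidence interval 4.19 to 4.81), with a Benjamini-Hochberg adjusted p of 2.0e-05 in limma. By size on this scale it ranked 4 among all tested genes, after SERPINB2, SLC16A6 and IL1B. With 0.1 in place of 1 added to the TPM, THBD, at 5.55, rose more than IL24, at 4.93. In the control group 14.6% of the tested genes had a lower mean TPM than IL24, and after rutaecarpine 86.8% did. IL24 therefore moved from among the weakly expressed genes to rank 1902 by level.

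Only 2 of the 7 members, IL24 and IL20RB, reached the filter on low TPM, IL24 in all 6 libraries and IL20RB in 5. Of these 2, IL24 passed the test as an up-regulated DEG and IL20RB did not pass. Among all tested genes 9.29% passed, 3.51% were DEGs and 2.01% were up-regulated DEGs. In 4 of the 7 members (IL19, IL20, IL24 and IL20RB) every rutaecarpine library lay above every control library. Groups that did not overlap, in either direction, were found for 33.3% of all tested genes. That share does not cover IL19 and IL20, which were not tested and did not exceed 0.25 TPM, so the count of members cannot be set against it.

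**Figure D1:**
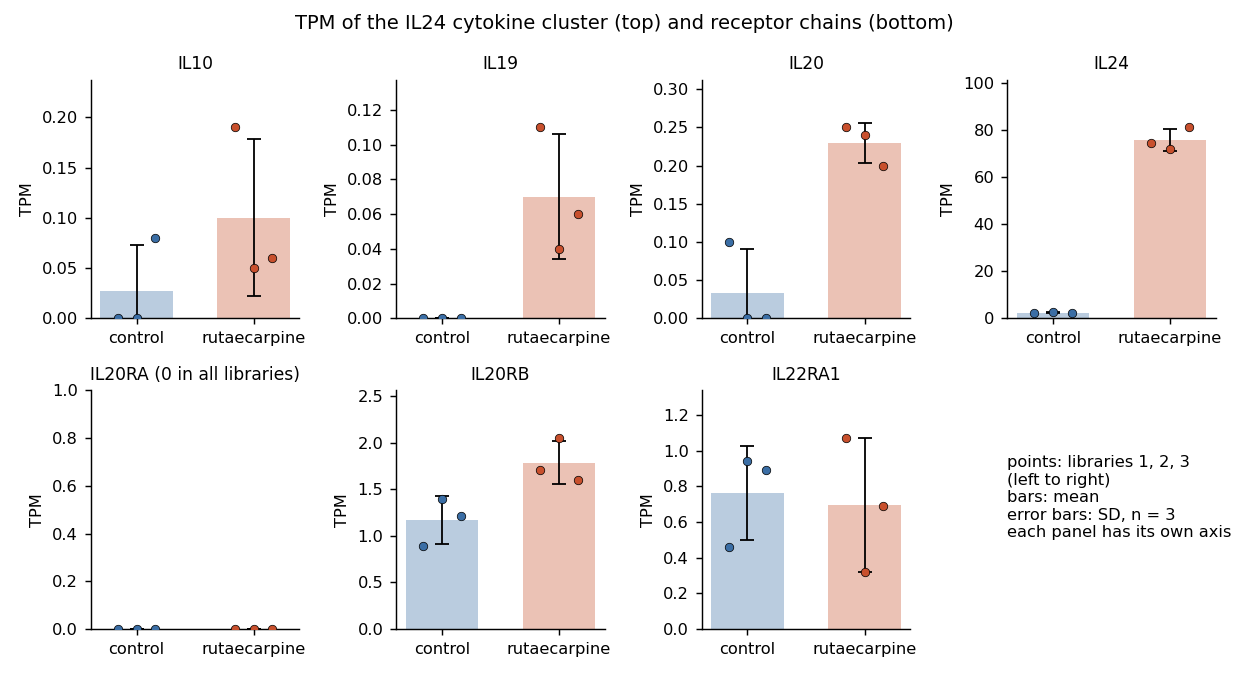
TPM of the 7 genes in each library (points), with the group mean (bars) and SD (error bars, n = 3) for control and rutaecarpine and a separate linear axis for each gene. IL24 alone exceeds 3 TPM, IL10, IL19 and IL20 stay below 0.3 TPM, and IL20RA is at 0 throughout.

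The other cytokines of the cluster stayed near 0. IL20, which shares both receptors with IL24, was listed at 0.1, 0 and 0 TPM in the control libraries and at 0.25, 0.24 and 0.2 TPM after rutaecarpine. The groups did not overlap, yet no library exceeded 0.25 TPM. IL19 was at 0 in all 3 control libraries and at 0.11, 0.04 and 0.06 TPM after rutaecarpine. IL10, an anti-inflammatory cytokine, was at 0, 0 and 0.08 TPM in the control libraries and at 0.19, 0.05 and 0.06 TPM after rutaecarpine, and its groups overlapped. In RefSeq 1 start of IL19 lies inside IL10 on the opposite strand, and whether reads were counted by strand is not given in the sources used here, so the low values of these 2 genes could not be told apart with certainty.

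None of these 3 genes entered the test. In the exact permutation test (two-sided, on log2(TPM + 1)), in which 3 libraries against 3 cannot give less than p = 0.1, IL19 and IL20 reached p = 0.1 and IL10 p = 0.3, and IL24 itself p = 0.1. When limma was run without the filter, with a pseudocount of 0.1 in place of 1, the log2 fold changes were 1.39 for IL20, 0.74 for IL19 and 0.65 for IL10. The adjusted p was 0.153, 0.222 and 0.542 by that limma fit with Benjamini-Hochberg adjustment, so none of the 3 passed. IL24 made up 96.0%, 100% and 96.3% of the summed TPM of the 4 cytokines in the control libraries and 99.3%, 99.5% and 99.6% after rutaecarpine. The other 5 cytokines of the IL10 family that were looked up (IL22, IL26, IFNL1, IFNL2 and IFNL3) were listed at 0 in all 6 libraries.

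Among the receptor chains, IL20RB, the chain common to both IL24 receptors, was at 0.89, 1.4 and 1.21 TPM in the control libraries. After rutaecarpine it was at 1.71, 2.05 and 1.6 TPM. All 3 rutaecarpine libraries were higher than all 3 control libraries, but the difference was small. The means were 1.17 ± 0.258 and 1.79 ± 0.235 TPM (SD, n = 3), the log2 fold change was 0.37 (standard error 0.18, 95% confidence interval -0.05 to 0.79), and the adjusted p was 0.262 by limma with Benjamini-Hochberg adjustment. The exact permutation test gave p = 0.1 for IL20RB, the smallest possible.

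IL22RA1, the other chain of the second receptor, was at 0.46, 0.94 and 0.89 TPM in the control libraries and at 1.07, 0.32 and 0.69 TPM after rutaecarpine. The groups overlapped, with means of 0.763 ± 0.264 and 0.693 ± 0.375 TPM (SD, n = 3), and only 1 library reached 1 TPM, so the gene was not tested. IL20RA, the partner of IL20RB in the first receptor, was listed at 0 TPM in all 6 libraries. Thus transcripts of both chains of the IL22RA1 and IL20RB receptor were listed above 0 in every library, and those of the IL20RA and IL20RB receptor were not. The depth is unknown, so a low level of IL20RA was not detectable here rather than shown to be absent, and receptor protein was not measured.

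In the control group the order of the levels by mean TPM was IL24, IL20RB and IL22RA1, with the other members at or near 0. The control ranges of IL20RB and IL22RA1 overlapped, but within each control library IL20RB was the higher. It was 1.93, 1.49 and 1.36 times IL22RA1 in control replicates 1, 2 and 3, and this difference between genes was not tested. After rutaecarpine the order was IL24, IL20RB, IL22RA1, IL20, IL10 and IL19, and each of these was separate from the next except IL10 and IL19. The distance between ligand and receptor transcripts grew. IL24 was 2.67, 1.94 and 1.72 times IL20RB in TPM in control replicates 1, 2 and 3, and 43.6, 35.0 and 50.7 times after rutaecarpine. Against IL22RA1, the ratio of TPM was 5.17, 2.89 and 2.34 in the control libraries and 69.7, 224 and 118 after rutaecarpine, where the spread came mostly from the low IL22RA1 values.

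Of the other receptor chains of the family, IL10RB, which the receptors for IL10, IL22 and the interferon lambdas share, was at 31.0 ± 1.13 TPM in control cells against 35.4 ± 1.88 TPM in treated cells (SD, n = 3). The log2 fold change of 0.19 did not pass (adjusted p = 0.292 by limma with Benjamini-Hochberg adjustment). IL10RA, the chain specific to IL10, was at 0 in all libraries, IL22RA2 did not exceed 0.02 TPM, and IFNLR1, the chain specific to the interferon lambdas, was at 0.19 to 0.2 TPM in the control libraries and 0.38 to 0.7 TPM after rutaecarpine. IL10RB alone of these 4 chains was tested.

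TYK2, JAK1 and STAT3 were present at much higher TPM than IL20RB and IL22RA1, whereas JAK2 and STAT5B lay closer to these chains and STAT5A, at 0.29 to 1.82 TPM, was too low to test. Of 6 genes for JAK kinases and STAT factors, 5 were tested and 0 passed by limma with Benjamini-Hochberg adjustment, with a median log2 fold change of 0.14 against 0.08 for all tested genes. None of the 5 had an unadjusted p under 0.05. TYK2 was at 101 ± 8.41 TPM in control cells against 111 ± 9.30 TPM in treated cells (SD, n = 3). JAK1, the kinase bound by IL20RA and IL22RA1, was at 94.86, 94.75 and 57.69 TPM in control replicates 1, 2 and 3 and at 96.64, 83.76 and 99.35 TPM after rutaecarpine. STAT3, the main factor downstream of IL24 receptors, was at 48.85, 46.52 and 31.14 TPM in the control libraries and at 46.77, 32.94 and 44.34 TPM after rutaecarpine. Both genes overlapped between the groups, with control replicate 3 the lowest control library in each, and the sign of their fold changes turned when a library was left out.

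JAK2 depended on the same library. It had 12.18, 12.13 and 5.12 TPM in control replicates 1, 2 and 3, and 5.16, 4.82 and 6.52 TPM after rutaecarpine. With all libraries its log2 fold change was -0.66 (adjusted p = 0.263 by limma with Benjamini-Hochberg adjustment), and without control replicate 3 it was -1.03 (limma, Benjamini-Hochberg adjusted p = 0.00471). Control replicate 3 stood apart from the other libraries over all genes, with a median log2(TPM + 1) of 3.56 against 3.81 to 4.00 in the other 5. IL24 changed little without that library, with a log2 fold change of 4.44.

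Of the 10 inhibitors of JAK-STAT signalling that were looked up, 8 were tested, 0 rose and 1 fell, while 9.29% of all tested genes passed. The one that fell was SOCS3, which STAT3 induces and which blocks JAK kinases. SOCS3 was at 42.71, 39.08 and 40.88 TPM in the control libraries. After rutaecarpine it was at 20.93, 18.8 and 20.89 TPM. All rutaecarpine libraries were thus well below the control libraries while IL24 was well above them. The log2 fold change of SOCS3 was -0.98 (standard error 0.10, adjusted p = 0.00201 by limma with Benjamini-Hochberg adjustment), just short of the fold limit for a DEG. SOCS3 passed under every alternative and was past the fold limit in some of them. Its log2 fold change was -1.08 with the libraries centred on their medians and -1.01 with a pseudocount of 0.1. SOCS1, a related inhibitor, was at 4.64 ± 1.02 TPM in control cells against 2.67 ± 0.268 TPM in treated cells (SD, n = 3), with an adjusted p of 0.101 by limma with Benjamini-Hochberg adjustment. The phosphatases PTPN11 and PTPN1, the most abundant of the list by the mean of all 6 libraries, did not pass.

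**Figure D2:**
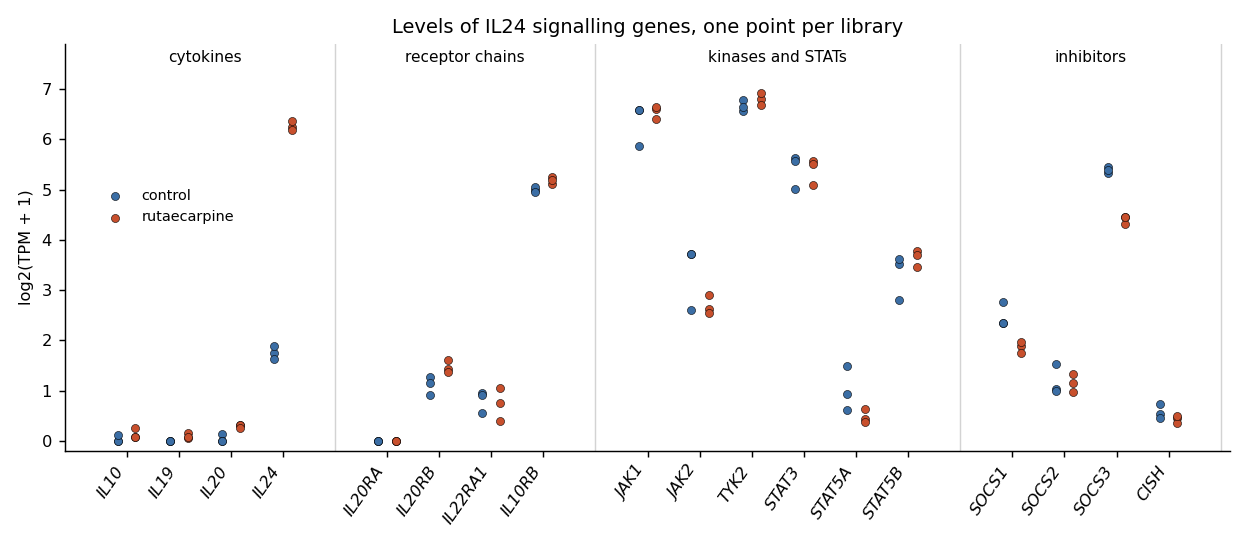
log2(TPM + 1) in each library (points, blue for control and red for rutaecarpine) of the cytokines, receptor chains, JAK and STAT genes and inhibitors. After rutaecarpine IL24 lies between STAT3 and JAK1, the receptor chains IL20RB and IL22RA1 stay below 2 on this axis, and SOCS3 is lower in all 3 rutaecarpine libraries.

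Genes known as STAT3 targets moved in both directions. All 10 were tested, 2 rose, 2 fell and 6 did not pass, and 0 were DEGs. Over all tested genes the share that passed was 9.29%. TIMP1, an inhibitor of matrix metalloproteinases, rose from a mean of 2587 ± 322 to one of 4926 ± 565 TPM (SD, n = 3), and JUNB, an AP-1 subunit, rose from 66.5 ± 0.708 to 92.3 ± 4.79 TPM. Neither passed by limma once each library was centred on its median, where 2 other genes of the list rose. JUNB was also lost with the replicate number as a block and when any 1 library other than control replicate 3 was left out (adjusted p from 0.057 to 0.0975 by limma with Benjamini-Hochberg adjustment). BIRC5, an inhibitor of apoptosis expressed in dividing cells, fell from 66.8 ± 1.49 to 34.6 ± 0.881 TPM, and MYC, a growth-promoting transcription factor, fell from 56.8 ± 1.30 to 35.5 ± 3.17 TPM. The MYC call was lost with the replicate number as a block (adjusted p = 0.0686 by limma with Benjamini-Hochberg adjustment). The median log2 fold change of the 10 genes was 0.25. Leaving out control replicate 3 gave 6 of the 10 that passed, and leaving out any other library gave 3. VEGFA and MCL1, both higher in all rutaecarpine libraries, passed only without control replicate 3 among these fits. VEGFA rose from 927 ± 314 to 1704 ± 99.1 TPM (SD, n = 3). By limma with Benjamini-Hochberg adjustment its adjusted p was 0.0675 with all libraries and 0.00111 without control replicate 3. For MCL1 these values were 0.0970 and 0.0226.

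IL24 inside the cell has been linked to the chaperone HSPA5 and to genes of the endoplasmic reticulum stress response. Of 8 genes so linked, 7 were tested, 4 rose and 0 fell, and 3 were up-regulated DEGs. Over all tested genes 9.29% passed and 2.01% were up-regulated DEGs. HSPA5 was at 274.91, 291.34 and 229.88 TPM in the control libraries and at 858.89, 1142.07 and 1131.72 TPM after rutaecarpine, a log2 fold change of 1.97 (standard error 0.14). PPP1R15A, a phosphatase subunit that ends the translation block of this response, rose from a mean of 46.8 ± 1.63 to one of 154 ± 9.95 TPM (SD, n = 3). DDIT3, a transcription factor induced by the same response, rose from 109 ± 28.5 to 326 ± 58.2 TPM. For all 3 genes the lowest rutaecarpine library was above the highest control library, while 33.3% of all tested genes had groups that did not overlap in either direction. Whether IL24 had a part in these rises was not tested.

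The remaining genes of that list changed less. GADD45A, induced by DNA damage and other stress, rose from a mean of 57.0 ± 3.41 to one of 90.3 ± 12.7 TPM (SD, n = 3). EIF2AK2, EIF2AK3 and GADD45B did not pass, and GADD45G was too low to test. The number that passed was 3 in place of 4 without control replicate 1, control replicate 2, rutaecarpine replicate 2 or rutaecarpine replicate 3. GADD45A did not pass by limma without the filter, once each library was centred on its median, or with the replicate number as a block.

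Genes for factors that act on cytokine promoters were given by a list of AP-1 and CEBP members. The list of the AhR pathway held AHR and ARNT together with AhR target genes. Of the 10 AP-1 and CEBP genes, all tested, 6 rose and 1 fell, and 2 were DEGs. Over all tested genes 9.29% passed and 3.51% were DEGs. The DEGs were ATF3, which rose from a mean of 35.6 ± 5.40 to one of 93.4 ± 14.0 TPM (SD, n = 3), and FOSB, which rose from 1.36 ± 0.268 to 3.96 ± 0.490 TPM. JUN rose from 189.7 ± 26.3 to 353 ± 22.8 TPM and CEBPB from 109.9 ± 13.2 to 211 ± 20.2 TPM, whereas CEBPD fell from 77.4 ± 6.53 to 44.4 ± 4.72 TPM. Only 4 of the 10 passed without control replicate 1, rutaecarpine replicate 1 or rutaecarpine replicate 3, or with the replicate number as a block. FOSB was among the genes lost in each of these fits.

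All 6 AhR pathway genes were tested, 4 rose and 0 fell, and 3 were DEGs, beside shares of 9.29% passed and 3.51% DEGs over all tested genes. AHRR and CYP1A1, a cytochrome P450 induced by AhR, entered the test only through the rutaecarpine libraries, since both were below 1 TPM in every control library. With 1 TPM required in all libraries, 4 were tested and 2 rose. TIPARP, a target of AhR that limits its activity, rose from a mean of 11.7 ± 3.52 to one of 106.6 ± 15.0 TPM (SD, n = 3). AHRR, the AhR repressor, was at 0.45, 0.33 and 0.07 TPM in the control libraries and at 5.93, 2.8 and 4.86 TPM after rutaecarpine. CYP1B1, a cytochrome P450 and a common readout of AhR activity, had a log2 fold change of 2.52 (standard error 0.26) and was the third DEG. CYP1A1 was at 0.08 ± 0.0985 TPM in control cells against 1.15 ± 0.0306 TPM in treated cells (SD, n = 3). It passed with all libraries, but not without control replicate 1 or any 1 rutaecarpine library, or with the replicate number as a block. The genes of the receptor itself did not pass. AHR had 71.6 ± 36.1 and 72.5 ± 15.4 TPM, ARNT had 18.2 ± 6.26 and 20.1 ± 4.09 TPM (SD, n = 3), and the sign of both fold changes turned without control replicate 3. These AhR targets rose by less than IL24 on the log2(TPM + 1) scale, a difference between genes that was not tested.

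Of 7 genes for factors that stabilise or degrade cytokine mRNA, all tested, 0 passed by limma with Benjamini-Hochberg adjustment with all libraries and 3 passed without control replicate 3 (ZFP36L1, ELAVL1 and MAPKAPK2, all lower after rutaecarpine). With all libraries 1 of the 7, MAPKAPK2, had an unadjusted p under 0.05. HNRNPD, the most abundant, was at 219 ± 18.4 and 233 ± 7.67 TPM (SD, n = 3).

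**Figure D3:**
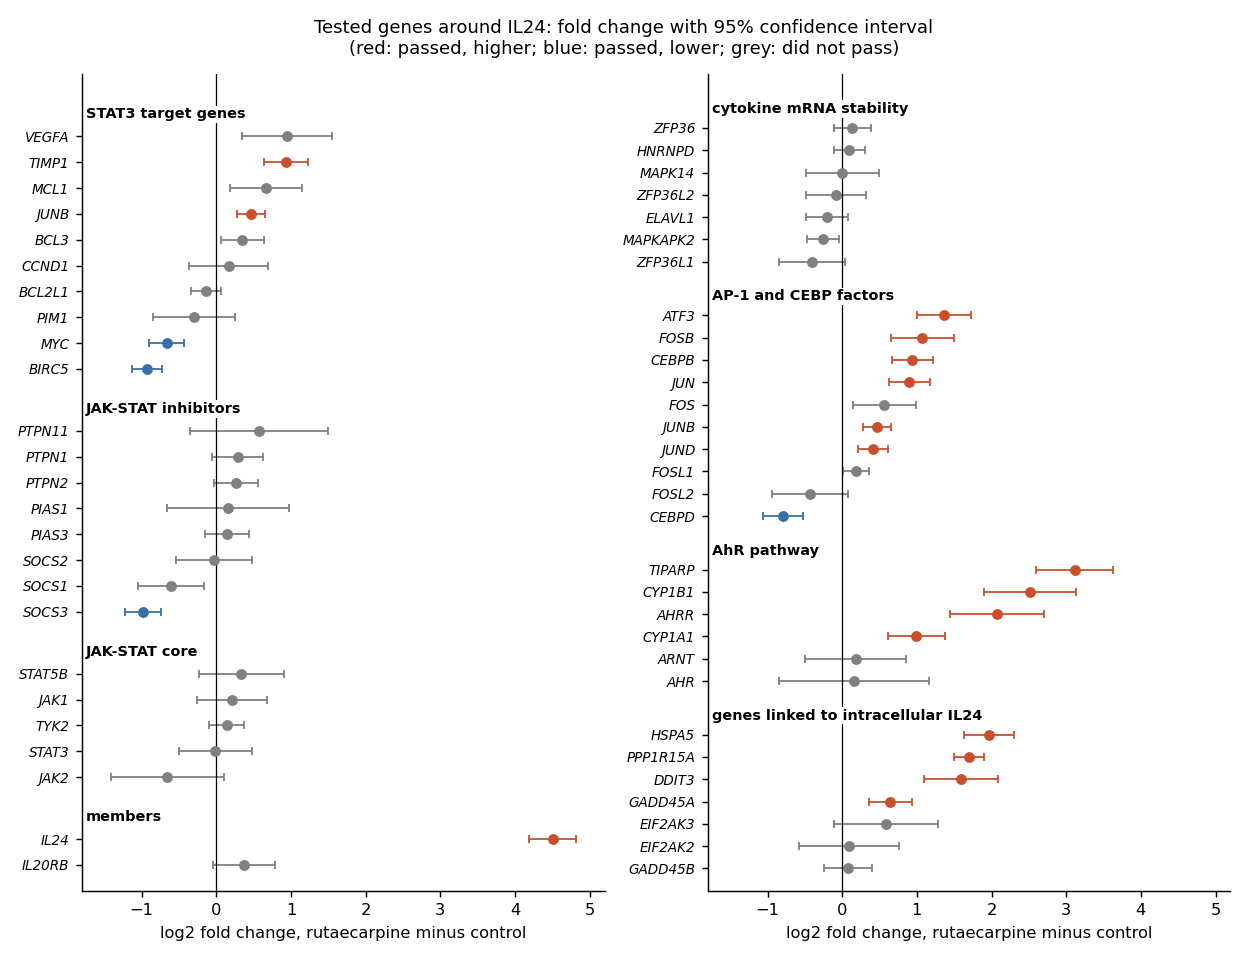
log2 fold change on log2(TPM + 1), rutaecarpine minus control, with the 95% confidence interval from limma, for every tested gene of the members and 7 lists. Red marks genes that passed and were higher, blue those that passed and were lower, and grey those that did not pass, and IL24 at 4.50 is the largest change shown while the 5 JAK and STAT genes are all grey.

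Around IL24 on chromosome 1 few genes could be tested, and none of them but IL24 was a DEG. Within 500 kb on each side of the IL24 start, 34 annotated genes were in the table, 18 of them protein coding. Of these 34, 8 were at 0 in all libraries and 10 were tested. IL24, DYRK3 and CD55 passed, all higher after rutaecarpine, and IL24 was the single DEG. Since IL24 sets the window, it is left out of the next count. Of the 9 other tested genes, 2 passed and 0 were DEGs. Among all tested genes 9.29% passed and 3.51% were DEGs. FCMR, a receptor for IgM, ends 246 bases from the end of IL24 on the opposite strand and was the nearest tested gene. It was at 8.47, 6.99 and 8.54 TPM in the control libraries and at 7.34, 4.74 and 8.32 TPM after rutaecarpine. The groups overlapped, and the log2 fold change was -0.23 (adjusted p = 0.554 by limma with Benjamini-Hochberg adjustment).

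DYRK3, a protein kinase gene 262 kb away on the IL10 side, rose from a mean of 10.7 ± 1.17 to one of 18.5 ± 1.57 TPM (SD, n = 3, log2 fold change 0.74). Its antisense gene DYRK3-AS1 was at 0.0633 and 0.663 TPM on average, and the 2 cannot be told apart if reads were counted without strand. CD55, which protects cells from complement and lies 424 kb away on the other side, rose from 25.4 ± 0.901 to 43.5 ± 0.877 TPM (log2 fold change 0.75). DYRK3 did not pass without control replicate 1 or any 1 rutaecarpine library (adjusted p from 0.0589 to 0.111 by limma with Benjamini-Hochberg adjustment) or with the replicate number as a block (0.127), and CD55 was lost with the block alone (0.0518). MAPKAPK2, a stress-activated kinase gene between IL10 and DYRK3, had 98.1 ± 7.27 and 81.8 ± 3.56 TPM, and EIF2D had 48.8 ± 1.75 and 49.1 ± 0.511 TPM, and neither passed. Without control replicate 3 MAPKAPK2 passed, with an adjusted p of 0.0224 by limma with Benjamini-Hochberg adjustment. PFKFB2, on the other side of IL24, was at 3.48 ± 1.86 TPM in control cells against 7.0 ± 1.28 TPM in treated cells (adjusted p = 0.164 by limma with Benjamini-Hochberg adjustment). PIGR, FCAMR, C1orf116, C4BPB and C4BPA were at or below 0.05 TPM on average in both groups.

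**Figure D4:**
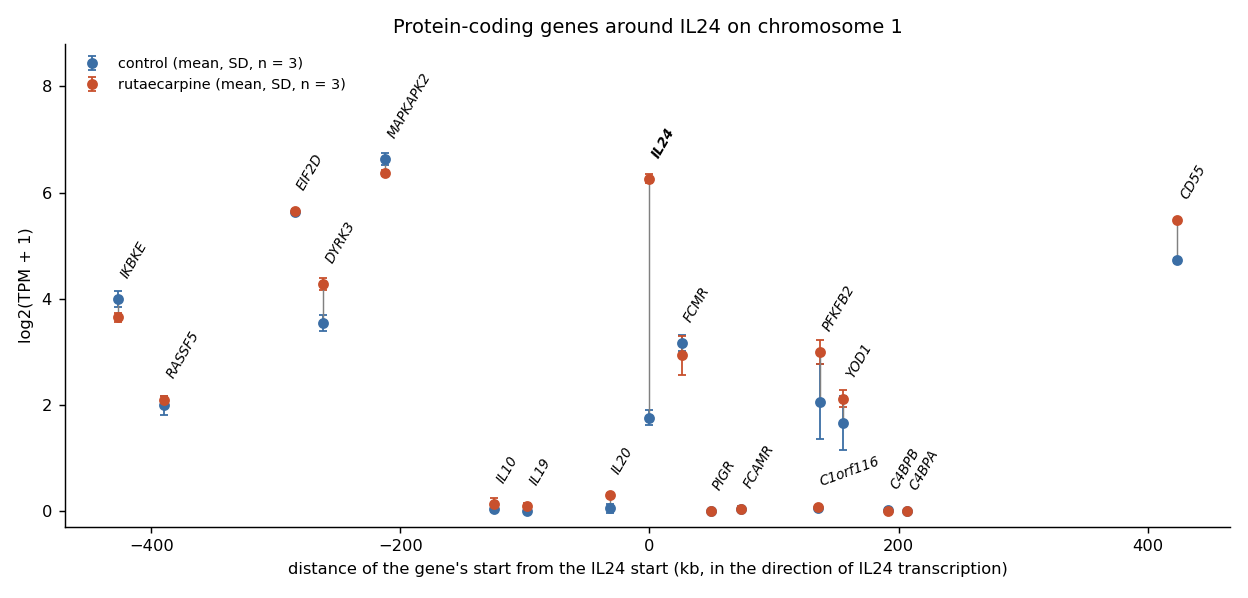
Mean log2(TPM + 1) with SD (n = 3) of the 18 protein-coding genes within 500 kb of the IL24 start, placed by the distance of their start from it in kb, control in blue and rutaecarpine in red, joined by a grey line. IL24 shows the longest line, and IL10, IL19 and IL20 next to it stay near 0 in both groups.

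Among 38 interleukin genes, picked by name after the data had been seen and so given as levels only, IL24 ranked 12 by mean TPM in the control group and 3 after rutaecarpine. Above it after rutaecarpine were IL1B, with 6670 TPM, and IL6, with 1343 TPM on average, both inflammatory cytokines. Below it were IL11, with 50.7 TPM, and IL1A, with 43.7 TPM. The corresponding control means were 196.5 TPM for IL1B, 632 TPM for IL6, 24.8 TPM for IL11 and 4.34 TPM for IL1A.

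The genes whose pattern over the 6 libraries was most like that of IL24 were found by the root mean square distance between log2(TPM + 1) profiles, each centred on its control mean. The nearest was THBD, which encodes the endothelial anticoagulant receptor thrombomodulin, at a distance of 0.232 on the log2 scale. It was at 0.38, 0.54 and 0.42 TPM in the control libraries and at 24.44, 24.89 and 26.69 TPM after rutaecarpine. THBD thus entered the test only through the rutaecarpine libraries. With a pseudocount of 0.1 in place of 1 its log2 fold change was 5.55, above that of IL24 at 4.93. Next were IGFBP1, an insulin-like growth factor binding protein, at 0.406, IL1B at 0.414, PTGS2, the inducible prostaglandin synthase, at 0.465 and BEX1 at 0.489. The mean of IGFBP1 rose from a mean of 53.0 ± 9.27 to one of 831 ± 59.6 TPM (SD, n = 3) and that of BEX1 from 8.16 ± 1.62 to 130.7 ± 3.65 TPM. All 5 separated the groups as IL24 did, and with 2 groups of 3 libraries the measure is set almost wholly by the size of the rise.

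**Figure D5:**
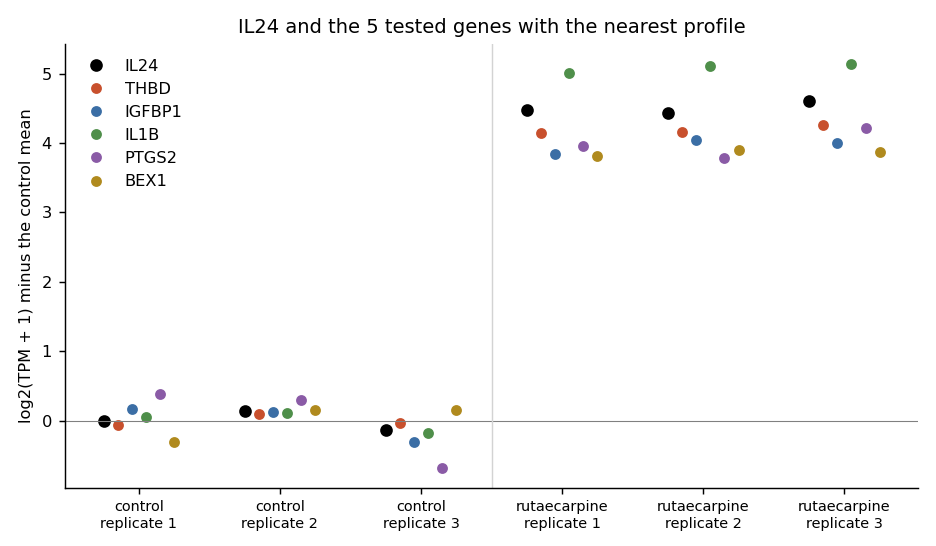
log2(TPM + 1) minus the gene's control mean in each of the 6 libraries, for IL24 and the 5 tested genes at the smallest root mean square distance from it (THBD 0.232 to BEX1 0.489). The control values scatter around 0 and the rutaecarpine values lie near 4 to 5, with IL1B above IL24 and the other 4 below it.

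Markers of other cell types were checked, because IL24 is made by immune cells and keratinocytes. PTPRC, carried by all leukocytes, did not exceed 0.03 TPM in any library, and CD3D, MS4A1 and AIF1 were at 0 in all. The summed TPM was 0.76 to 1.12 in the control libraries and 0.52 to 0.82 after rutaecarpine for the 3 T cell markers, most of it from CD2, and 0.08 to 0.54 and 0.07 to 0.23 for the 2 B cell markers. The 4 epithelial and keratinocyte markers, KRT5 and KRT14 among them, summed to 0.64 to 2.02 and 0.29 to 1.3 TPM. The 3 endothelial markers PECAM1, CDH5 and VWF summed to 1.04 to 1.17 TPM in the control libraries and 1.2 to 2.2 TPM after rutaecarpine, with PECAM1 higher in all 3 rutaecarpine libraries, and their part in the THBD values was not tested. The 4 myeloid markers summed to 452 to 511 and 319 to 357 TPM, nearly all of it CD68, a lysosomal protein that fell, while CD14 stayed at or below 0.54 TPM and ITGAM was at 0 in the control libraries and at 0, 0.27 and 0.54 TPM after rutaecarpine.

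Of the glial and glioma markers, VIM, CD44 and NES were present in all libraries. VIM fell from 7498 ± 499 to 4857 ± 381 TPM, NES fell from 19.5 ± 2.01 to 13.2 ± 0.751 TPM and OLIG2, a transcription factor of glial precursors, rose from 1.59 ± 0.129 to 3.63 ± 0.524 TPM (SD, n = 3), and their part in the IL24 values was not tested. GFAP was at 3.98 ± 0.795 TPM in control cells against 4.67 ± 0.940 TPM in treated cells (SD, n = 3), and S100B and SOX2 were near 0. In bulk RNA, more cells with IL24 transcripts and more transcripts per cell cannot be told apart, and for SOCS3 the same holds of fewer cells and less RNA per cell.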

How the data were processed

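RNA was from 3 control and 3 rutaecarpine-treated U87 libraries, grouped by the labels, which also give the dose and the 48 h. The authors quantified genes with RSEM, and the deposited values are TPM, 1 column per library, with 0 columns unmatched to a sample. The submitters' processing notes also name GRCh38.p13, DESeq2 and edgeR, and the aligner is not given in the sources used here. TPM keep no read numbers, so depth is unknown, no counting error can be given and count tests were not used. The 6 libraries summed to between 990889 and 995734 TPM.

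Values were transformed to log2(TPM + 1), which understates the change of weakly expressed genes, and fitted with limma version 3.58.1 in R 4.3.3 (trend, two-sided, Benjamini-Hochberg adjustment over 14377 genes, group only). The fit was tested on simulated data without differences between whole libraries, with changes planted only in genes at higher control levels than IL24 and IL20RB. That test therefore does not cover the members. Gene names missing from 35671 rows were matched by Ensembl identifier for 35432 of them. The members, gene lists and tests were chosen with earlier results of these data known. Genes named are the members, DEGs of the lists, the most abundant genes of lists without a DEG, the 5 genes most like IL24 and some fixed pathway genes. Others on the lists, within 500 kb of IL24 or among interleukins were named after their values were seen. Some genes of the lists are not reported here.

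Alternatives were a pseudocount of 0.1, no filter, a stricter filter, centring, no trend, a replicate block, library weights, leaving out each library and, added after seeing the data, no filter with a pseudocount of 0.1. Tables and figures were made in Python (version 3.11.15) with pandas 2.3.3, numpy 2.4.6, matplotlib 3.10.9 and scipy 1.17.1.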

Additional observations from a re-analysis of the deposited data

How the results depend on the processing

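IL24 was an up-regulated DEG, and the single DEG among the members, under every alternative run. Its log2 fold change lay between 4.41, with the libraries centred on their medians, and 4.93, with a pseudocount of 0.1, and its largest adjusted p was 0.00243 (limma, Benjamini-Hochberg), with the replicate number as a block. IL20RB did not pass under any alternative that kept it, with log2 fold changes from 0.27 to 0.59 and adjusted p from 0.169 to 0.503 (limma, Benjamini-Hochberg). The stricter filter, 1 TPM or more in all 6 libraries, removed it. Over all genes there were 505 DEGs, 318 with the replicate block and 1335 genes with no fold limit. Leaving out 1 library at a time gave 353 to 610. With centring 251 DEGs were up-regulated and 295 down-regulated, against 289 and 216. Same-numbered libraries did not deviate together (correlations of 0.12, -0.27 and -0.22). With 3 libraries per group, these values cannot decide whether the numbers pair the libraries.

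The number of DEGs on the gene lists was 8 and lay between 7 and 11. Of 36 genes outside the members refitted under the alternatives, 28 passed, and 17 of these passed under every alternative that kept the gene. The stricter filter removed THBD, AHRR and CYP1A1. Among the 36, signs turned for 4 genes that did not pass. AHR was at -0.24 with library weights, and between -0.37 without control replicate 3 and 0.45 without control replicate 2 as libraries were left out. ARNT was at -0.0019 with library weights, and between -0.13 and 0.35 without the same libraries. JAK1 lay between -0.027 without control replicate 3 and 0.33 without control replicate 1. STAT3, negative with all libraries, turned to 0.10 without control replicate 1, 0.07 without control replicate 2 and 0.13 without rutaecarpine replicate 2. Of named genes refitted only without control replicate 3, EIF2AK2 turned from 0.09 to -0.22 and CD44 from 0.25 to -0.05. The shorter core of the dioxin response element matched in 1 member in place of 0. Ranking by Pearson's r over the 6 libraries kept 2 of the 5 genes most like IL24. The cause of these shifts was not tested. Identity between the members' proteins, planned as a description, was not run. Unknown depth limits what can be said of the members below 1 TPM.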

Other observations

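Ranked by Pearson's r in place of the distance, SERPINB2, TFPI2 and TNFSF14 joined IL1B and THBD among the 5 genes most like IL24. SERPINB2, a plasminogen activator inhibitor, rose from 7.31 ± 0.807 to 348 ± 29.8 TPM (SD, n = 3). TFPI2, a serine protease inhibitor, rose from 754 ± 68.0 to 4540 ± 218 TPM, and TNFSF14, a cytokine of the tumour necrosis factor family, from 0.397 ± 0.0306 to 3.25 ± 0.123 TPM. TNFSF14 was below 1 TPM in every control library and entered the test only through the rutaecarpine libraries.

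Of 4 housekeeping genes looked up, ACTB and HPRT1 fell and GAPDH and TBP did not pass. ACTB, the beta-actin gene, fell from 4207 ± 239 to 2924 ± 129.9 TPM (SD, n = 3), and HPRT1, a purine salvage enzyme, from 58.0 ± 7.22 to 37.3 ± 1.19 TPM. The ACTB call was lost by limma without the filter, with centring, with the block and without control replicate 1, control replicate 2 or rutaecarpine replicate 3 (Benjamini-Hochberg adjusted p from 0.052 to 0.0798). The HPRT1 call was lost with the block and when any 1 library other than control replicate 3 was left out (limma, Benjamini-Hochberg adjusted p from 0.0758 to 0.0964).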
